A study of Mus musculus with 16 samples.

Results

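The 53 genes described here code for proteins that make ribosomes in the nucleolus, and for abundant proteins that reside there. They were chosen by gene name, as known ribosome biogenesis and nucleolar genes, among 25650 genes of the deposited count table, and all 53 were among the 9540 genes with enough counts to test. By role they were 6 genes of RNA polymerase I and its factors, 7 core proteins of the small nucleolar ribonucleoproteins (snoRNPs), 18 small subunit assembly factors, 17 large subunit assembly factors and 5 abundant multifunctional nucleolar proteins.

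RNA was measured in Ba/F3, a mouse hematopoietic cell line described as pro-B that depends on interleukin-3 for growth. The line labelled ChimP3V3:gp130Box1/2 (ChimP3V3 cells) carried a synthetic receptor, and the line labelled gp130:IL-6R wt (gp130:IL-6R cells) carried the signal chain gp130 with the interleukin-6 receptor. Each line was profiled under interleukin-6 (IL-6) at 100 ng/ml and in medium, giving 4 groups of 4 libraries: ChimP3V3 under IL-6, ChimP3V3 in medium, gp130:IL-6R under IL-6 and gp130:IL-6R in medium. The title of the study names receptors whose activation is dominated by STAT3 phosphorylation. The labels do not state whether a line was a single clone, how long IL-6 was present or whether interleukin-3 was in the medium. The labels do not say that replicates came from separate cultures, so each p-value measures only the spread between these libraries, which may be technical.

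Ribosome synthesis starts when RNA polymerase I transcribes the ribosomal RNA precursor in the nucleolus. Box C/D and box H/ACA snoRNPs then guide methylation and pseudouridylation of this RNA, while assembly factors fold and cut it and add ribosomal proteins until the small and large subunits leave the nucleus. Proliferating blood cells need many ribosomes, and the transcription factor Myc is well known to activate many of the genes involved.

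Library totals ranged from 1275112 to 1650348 counts. Levels are given as CPM, a count divided by the TMM-scaled library total and set on the usual CPM scale, and replicates as libraries 1 to 4 in that order. Of the 24 pairs of replicates, 6 differed by no more than sampling noise (chi-square per degree of freedom 0.981 to 1.18 over all pairs). In ChimP3V3 cells in medium and gp130:IL-6R cells under IL-6 these pairs did not form closed sets, so all 4 libraries of each group were kept. Merging was tried as an alternative that joined libraries through shared partners. It joined all libraries of ChimP3V3 cells in medium, although libraries 3 and 4 there differed beyond noise (chi-square p = 8.43e-06). The hematopoietic markers Ptprc (292 to 445 CPM) and Csf2rb (289 to 511 CPM, a chain of the interleukin-3 receptor) were high in all 16 libraries. Among B-lineage markers, Pax5 (at most 1.31 CPM) and Ebf1 (at most 2.78 CPM) were near 0, while Cd79b had 6.69 to 17.7 CPM and Vpreb1 0.601 to 10.4 CPM over the 16 libraries. Cd79a had at most 0.804 CPM in ChimP3V3 cells and 3.01 to 16.5 CPM in gp130:IL-6R cells. The summed T and NK markers reached 4.02 CPM. The 3 macrophage markers, all with counts, summed to 31.2 to 41.2 CPM in ChimP3V3 cells under IL-6, 4.82 to 35.3 in ChimP3V3 cells in medium, 3.46 to 33.0 in gp130:IL-6R cells under IL-6 and 13.8 to 27.8 in gp130:IL-6R cells in medium. Of these Adgre1 had 4.82 to 14.5 CPM in ChimP3V3 cells and at most 0.713 CPM in gp130:IL-6R cells, and Csf1r reached 26.4 CPM. The summed level of the 11 pro-B and Ba/F3 markers reported here, each with a count in at least 1 library, was 1230 to 1340 CPM in ChimP3V3 cells under IL-6, 1247 to 1327 in ChimP3V3 cells in medium, 1006 to 1053 in gp130:IL-6R cells under IL-6 and 811 to 862 in gp130:IL-6R cells in medium. Ptprc, Csf2rb and Csf2rb2 gave most of this sum, while Igll1 (at most 0.718 CPM) and Kit (at most 1.44 CPM) were near 0. These marker levels move with line or condition, and their part in the results was not tested. Fewer cells expressing a gene and less RNA per cell cannot be told apart in such bulk libraries.

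The plain result over the 53 genes was a difference between the lines and a fall under IL-6 in 1 line. In medium, ChimP3V3 cells had lower levels than gp130:IL-6R cells for 41 of the 53 genes (33.4% of all tested genes were lower). Under IL-6, 6 of the 53 fell in ChimP3V3 cells (11.4% of all) and 25 fell in gp130:IL-6R cells (24.3% of all). Members of the same complex did not always move together: partners such as Imp3 and Imp4, or Bop1 and Pes1, differed in their calls.

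The summed counts of the 53 genes took 0.743% ± 0.0115 of the library in ChimP3V3 cells under IL-6 and 0.761% ± 0.0106 in medium (SD, n = 4 each). The gp130:IL-6R share was 0.870% ± 0.00388 under IL-6 and 0.954% ± 0.00706 in medium. Without Ncl and Npm1, which held much of that sum, the shares were 0.513% ± 0.00851 under IL-6 and 0.513% ± 0.00974 in medium in ChimP3V3 cells, and 0.594% ± 0.00534 under IL-6 and 0.673% ± 0.0101 in medium in gp130:IL-6R cells. The libraries of gp130:IL-6R cells under IL-6 thus lay between those of ChimP3V3 cells and those of gp130:IL-6R cells in medium, with no overlap between these sets. The mRNAs of the ribosomal proteins themselves took a higher share under IL-6 in both lines. Their 76 genes took 7.51% ± 0.155 under IL-6 and 6.65% ± 0.119 in medium in ChimP3V3 cells, and 6.99% ± 0.207 under IL-6 and 6.04% ± 0.18 in medium in gp130:IL-6R cells. The 13 mitochondrial genes took 1.69% ± 0.0417 under IL-6 and 1.40% ± 0.0354 in medium in ChimP3V3 cells, and 1.53% ± 0.078 under IL-6 and 1.16% ± 0.0237 in medium in gp130:IL-6R cells. These shares move with IL-6, and their part in the results below was not tested.

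**Figure D1:**
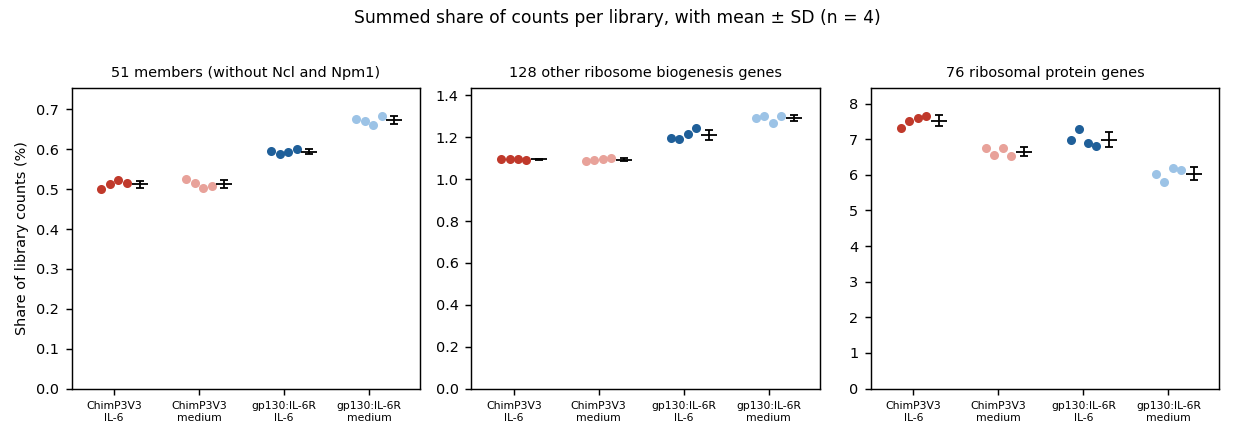
Share of library counts (%, vertical axis, from 0) summed over 51 of the genes (without Ncl and Npm1), over 128 other ribosome biogenesis genes and over 76 ribosomal protein genes, with a point for each library and the mean ± SD beside it (n = 4). The 51 genes held 0.594% under IL-6 and 0.673% in medium in gp130:IL-6R cells, and 0.513% in both conditions in ChimP3V3 cells, while the ribosomal protein share was higher under IL-6 in both lines.

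IL-6 was first set against medium within each line. A gene was called when the Benjamini-Hochberg adjusted p of edgeR's quasi-likelihood test, over all 9540 genes, was under 0.05. In ChimP3V3 cells 11 of the 53 genes rose, against 16.2% of all tested genes, and 6 fell, against 11.4% of all. Both shares of the 53, 20.8% and 11.3%, were near those of all genes, and the median log2 change of the 53 was 0.07, against 0.03 over all genes. In gp130:IL-6R cells 9 of the 53 genes rose, against 25.7% of all, and 25 fell, against 24.3% of all. The 25 make 47.2% of the 53, and the median log2 change was -0.17 for the 53 and 0.01 for all genes.

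The responses of the lines share no library and can be set side by side. Imp3, Ddx10, Rrs1, Ppan and Gnl3 rose in both lines. Fbl, Nop56, Nop10, Gar1, Mrto4 and Ncl fell in both. The share of all tested genes called alike in both lines is not given, so whether this overlap exceeds the general rate was not tested. Dkc1 and Wdr12 rose in ChimP3V3 cells and fell in gp130:IL-6R cells. A further 17 genes were called, as lower, only in gp130:IL-6R cells, which by itself does not show that the lines differ. Across the 53 genes the log2 changes of the lines had a Pearson correlation of 0.45 and a Spearman correlation of 0.38, beside 0.28 and 0.38 over all 9540 genes. This describes genes measured in the same libraries, which are not independent points.

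**Figure D2:**
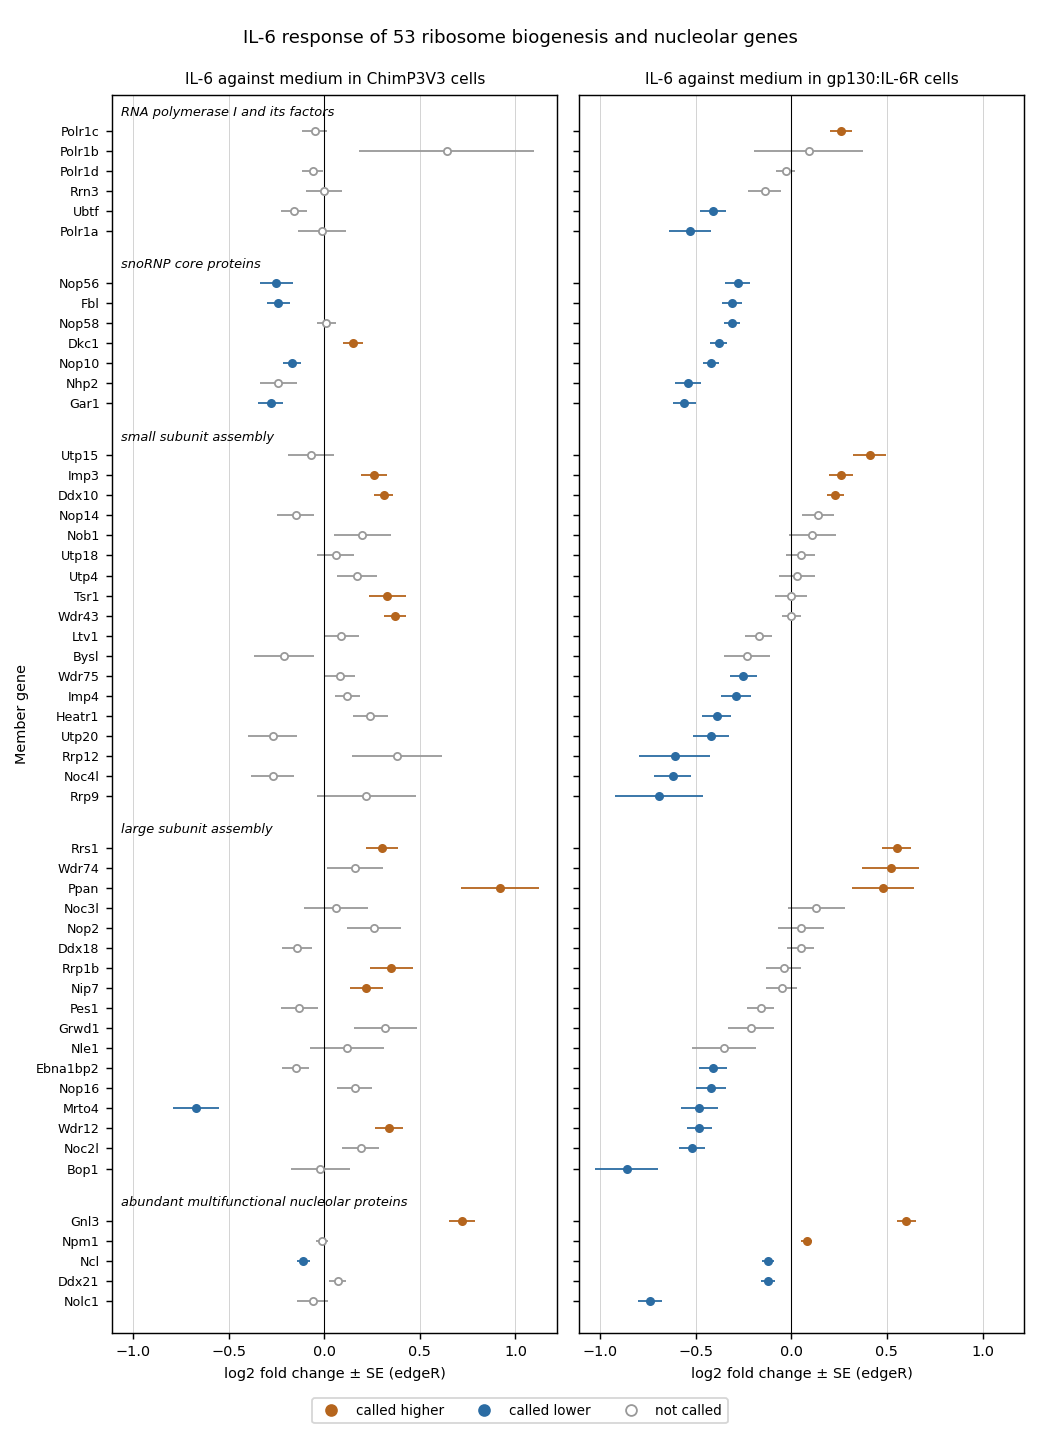
Log2 fold change under IL-6 against medium (horizontal axis, ± SE, edgeR) for each of the 53 genes in ChimP3V3 cells (left) and gp130:IL-6R cells (right), grouped by role and ordered by the gp130:IL-6R value, with filled points for called genes. All 7 snoRNP core genes lie left of 0 and are filled on the right, whereas in ChimP3V3 cells 4 of them are called lower and Dkc1 is called higher.

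The difference of the responses was tested directly, as the ChimP3V3 response minus the gp130:IL-6R response. It was positive and called for 16 of the 53 genes, against 12.4% of all genes tested, and negative and called for 2, against 11.5% of all. The median difference was 0.26 on the log2 scale for the 53 and 0.02 for all genes. This contrast uses the same libraries as the responses themselves, so each gene's own responses are given beside it below.

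ChimP3V3 cells were also set against gp130:IL-6R cells in each condition. In medium, where 65.1% of all tested genes differed, 41 of the 53 were lower in ChimP3V3 cells, against 33.4% of all, and Imp4 and Wdr74 were higher, against 31.7% of all. The median log2 difference was -0.50 for the 53 and 0.00 for all genes. Under IL-6, where 62.8% of all differed, 27 were lower, against 31.6% of all, and Imp4, Bop1, Ubtf and Ebna1bp2 were higher, against 31.2% of all, with a median of -0.23 for the 53. Of the 41 lower in medium, 23 were also lower under IL-6, and these 23 are among the 27. The share of all tested genes lower in both conditions is not given, so this overlap has no general rate beside it. Imp3, Ddx10 and Noc3l were not called between the lines in either condition.

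**Figure D3:**
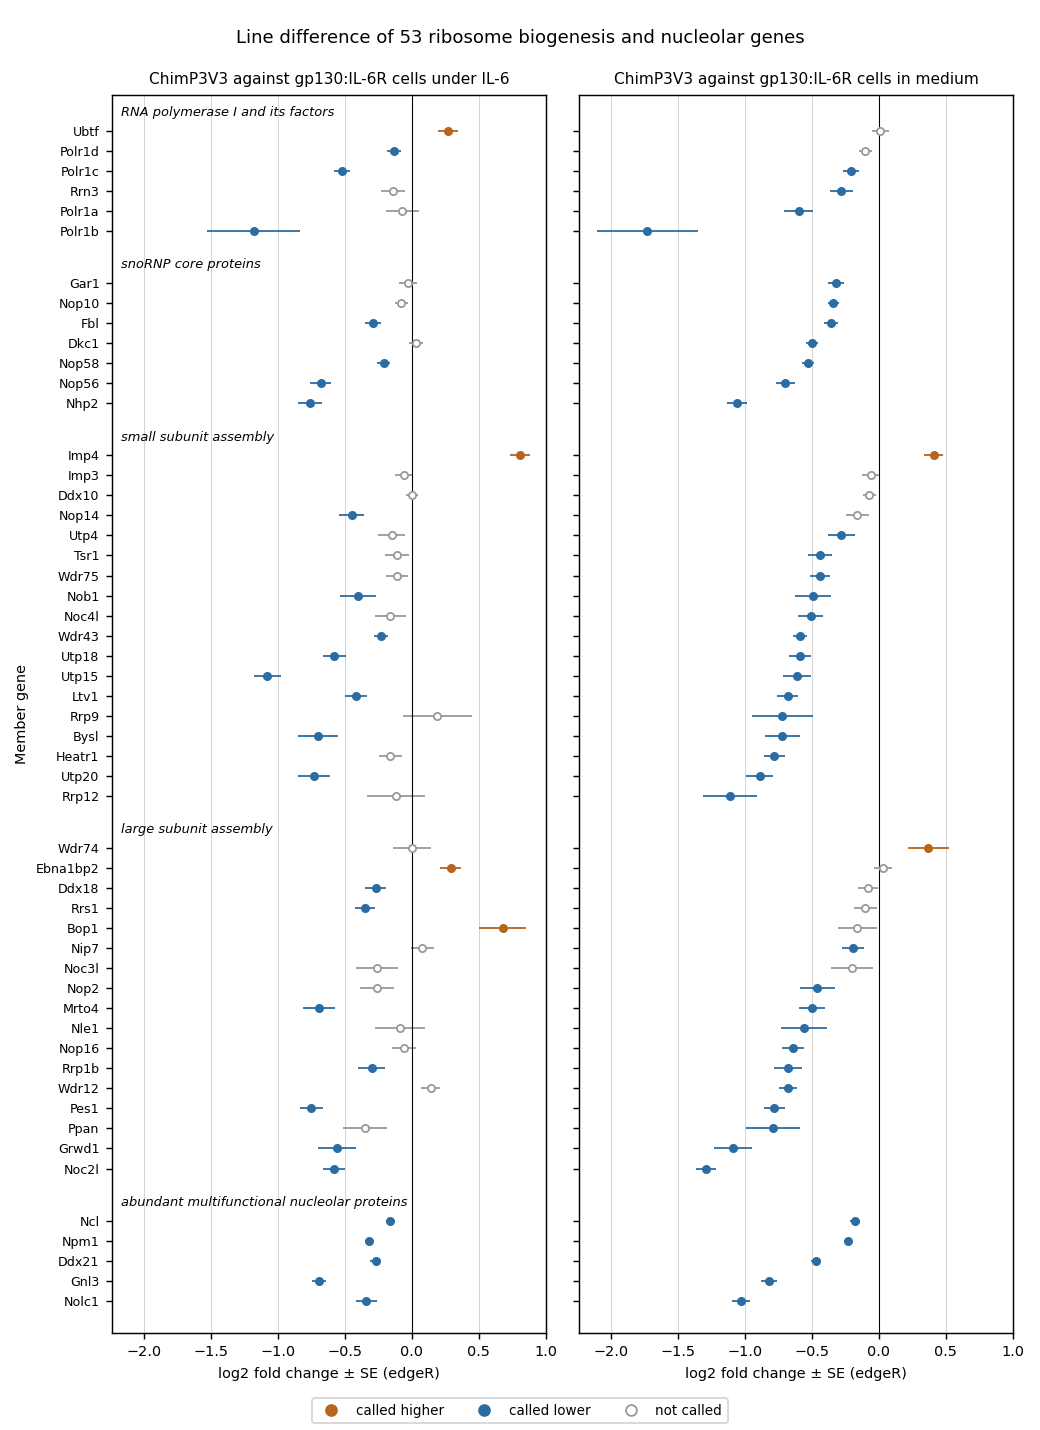
Log2 difference of ChimP3V3 cells against gp130:IL-6R cells (horizontal axis, ± SE, edgeR) for each of the 53 genes under IL-6 (left) and in medium (right), grouped by role and ordered by the value in medium, with filled points for called genes. In medium 41 points are called lower and 2 higher; under IL-6 these counts are 27 and 4.

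**Figure D4:**
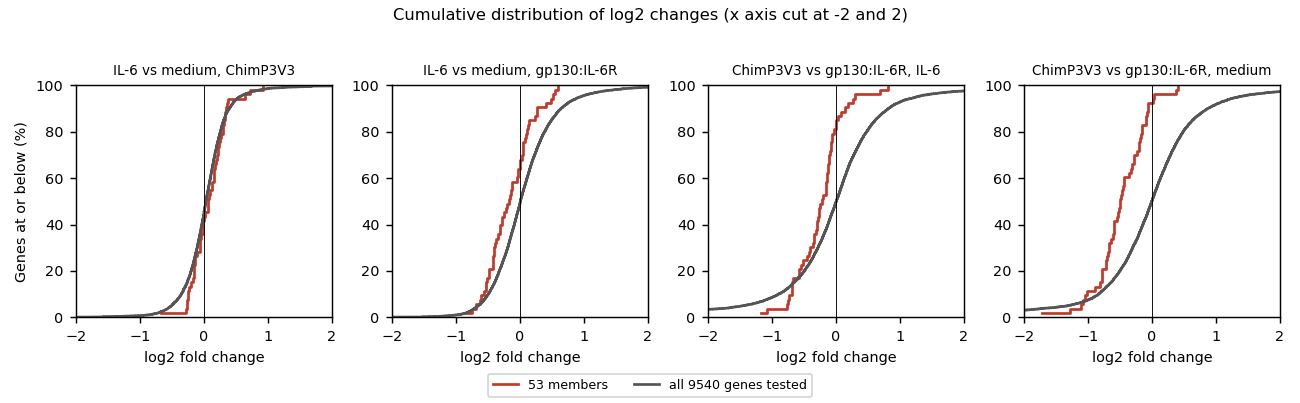
Cumulative share of genes (%, vertical axis) at or below a log2 fold change (horizontal axis, shown from -2 to 2) for the 53 genes and for all 9540 genes tested, in 4 comparisons. The curve of the 53 genes lies left of that of all genes between the lines, most in medium where their median is -0.50, and follows it closely in the ChimP3V3 response.

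The level of Myc itself is given because it is a known activator of these genes. Myc had 72.3 ± 6.75 CPM under IL-6 and 47.2 ± 4.52 CPM in medium in ChimP3V3 cells (SD, n = 4 each), a 1.53-fold rise with an adjusted p of 7.45e-06. In gp130:IL-6R cells it had 70.5 ± 2.84 CPM under IL-6 and 36.0 ± 4.09 CPM in medium, a 1.96-fold rise with an adjusted p of 3.34e-10. Myc libraries did not overlap between conditions in either line, and the difference of the responses was not called (log2 -0.35, adjusted p = 0.102), though it was without library 2 of ChimP3V3 under IL-6 (adjusted p = 0.0437). In medium Myc was higher in ChimP3V3 cells than in gp130:IL-6R cells (47.2 ± 4.52 against 36.0 ± 4.09 CPM, SD, n = 4 each; edgeR log2 0.39, adjusted p = 0.00472), with overlapping libraries. The call was lost when replicates that agree within sampling noise were merged, which left ChimP3V3 cells in medium without replicates. Under IL-6 no difference of Myc between the lines was called (log2 0.04, adjusted p = 0.776).

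Promoter sequence was read for the genes that a RefSeq table covers (build GRCm38.p6, from 250 bases before to 50 bases after a start). By symbol, 48 of the 53 genes matched, and Fbl, Rrp12, Rrs1, Bop1 and Npm1 did not. The canonical E-box CACGTG, which Myc with Max can bind and which reads the same on both strands, was found in the windows of 12 of the 48 genes: Grwd1, Imp4, Ltv1, Nle1, Nop2, Pes1, Rrn3, Tsr1, Utp18, Utp20, Utp4 and Wdr43. By window this was 21.1% of the 57 windows of these genes, beside 10.33% of the 9839 windows of tested genes and 7.15% of all 32851 windows. The motif CCGGAAG, a core that ETS factors can bind, was found on either strand in 35.1% of the windows, beside 20.27% of those of tested genes and 8.86% of all. The motif TTCNNNGAA, which STAT factors can bind and which reads the same on both strands, was in 10.5% of the windows (Nob1, Noc4l, Nop58, Polr1b, Rrn3 and Utp15), beside 6.94% and 8.30%. The STAT and ETS motifs can share letters. A match is a description of the sequence and not evidence of binding.

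The 4 windows that follow are shown because they hold the E-box in genes with different behaviour in these cells. Rrn3 was not called in either response, Imp4 was higher in ChimP3V3 cells in both conditions, Wdr43 rose only in the ChimP3V3 response as called, and Pes1 was lower in ChimP3V3 cells in both conditions. Each runs 5′ to 3′ on the gene's strand from 250 bases before the start to 30 bases after it, with CACGTG in capitals. All 4 genes lie on the plus strand, at chr16:13780449-13780728, chr1:34439579-34439858, chr17:71615965-71616244 and chr11:3963725-3964004 (GRCm38.p6).
Rrn3: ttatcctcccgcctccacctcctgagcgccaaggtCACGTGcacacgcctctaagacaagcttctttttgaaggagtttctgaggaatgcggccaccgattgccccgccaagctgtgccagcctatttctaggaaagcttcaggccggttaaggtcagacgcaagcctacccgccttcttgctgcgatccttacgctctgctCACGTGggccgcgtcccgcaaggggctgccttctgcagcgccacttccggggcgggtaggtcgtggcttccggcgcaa
Imp4: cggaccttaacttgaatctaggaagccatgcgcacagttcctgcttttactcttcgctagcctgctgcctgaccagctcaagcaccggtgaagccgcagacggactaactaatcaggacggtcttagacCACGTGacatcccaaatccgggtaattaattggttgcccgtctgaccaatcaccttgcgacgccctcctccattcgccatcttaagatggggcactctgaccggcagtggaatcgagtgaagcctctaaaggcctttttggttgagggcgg
Wdr43: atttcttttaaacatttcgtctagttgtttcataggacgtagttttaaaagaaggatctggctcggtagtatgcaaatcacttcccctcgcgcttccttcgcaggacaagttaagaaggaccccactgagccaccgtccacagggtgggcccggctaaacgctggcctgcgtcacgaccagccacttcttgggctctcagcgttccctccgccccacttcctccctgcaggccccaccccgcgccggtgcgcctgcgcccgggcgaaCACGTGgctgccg
Pes1: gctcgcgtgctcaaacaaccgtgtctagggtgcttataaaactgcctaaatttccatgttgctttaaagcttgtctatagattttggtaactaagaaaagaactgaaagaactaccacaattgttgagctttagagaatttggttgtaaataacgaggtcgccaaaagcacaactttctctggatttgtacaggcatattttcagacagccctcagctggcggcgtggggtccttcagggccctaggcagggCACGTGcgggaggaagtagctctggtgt
Counted from the start, with the start as base 1, the E-box begins at base -215 and at base -48 of Rrn3, at base -121 of Imp4, at base 18 of Wdr43 and at base 3 of Pes1. Among the 12 genes with an E-box, 2 were called in ChimP3V3 cells, both higher, and 2 in gp130:IL-6R cells, both lower, with median log2 changes of 0.12 and -0.15. Among the 36 with a window and no E-box, 8 rose and 5 fell in ChimP3V3 cells and 7 rose and 20 fell in gp130:IL-6R cells, with medians of 0.03 and -0.24. Over all tested genes 16.2% rose and 11.4% fell in ChimP3V3 cells, and 25.7% rose and 24.3% fell in gp130:IL-6R cells. In medium 11 of the 12 and 27 of the 36 were lower in ChimP3V3 cells than in gp130:IL-6R cells, against 33.4% of all tested genes.

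The next 2 windows hold the ETS core, in capitals (CTTCCGG is CCGGAAG on the other strand). Their genes are among the 3 with the smallest p for a fall in gp130:IL-6R cells. Nop10, also among those 3, has a window without this core. Of the 19 genes with the core, Ddx10, Polr1c, Ppan and Wdr74 rose in gp130:IL-6R cells. Ebna1bp2, Gar1, Heatr1, Nhp2, Noc2l and Nolc1 fell, and the others were not called. In that line 25.7% of all tested genes rose and 24.3% fell. A link of the core with the response was not tested. Gar1 lies on the minus strand at chr3:129831367-129831646 and Nolc1 on the plus strand at chr19:46075597-46075876 (GRCm38.p6).
Gar1: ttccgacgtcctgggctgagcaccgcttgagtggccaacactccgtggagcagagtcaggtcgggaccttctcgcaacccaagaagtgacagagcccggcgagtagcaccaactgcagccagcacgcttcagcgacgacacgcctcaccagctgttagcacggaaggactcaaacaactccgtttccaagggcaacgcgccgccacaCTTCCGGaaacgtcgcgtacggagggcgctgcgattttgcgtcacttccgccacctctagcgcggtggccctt
Nolc1: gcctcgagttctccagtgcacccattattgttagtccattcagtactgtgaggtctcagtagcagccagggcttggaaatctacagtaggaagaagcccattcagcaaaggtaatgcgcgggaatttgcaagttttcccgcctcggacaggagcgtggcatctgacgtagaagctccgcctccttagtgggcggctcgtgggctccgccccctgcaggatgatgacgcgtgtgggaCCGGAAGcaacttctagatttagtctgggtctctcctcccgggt
The ETS core begins at base -43 of Gar1 and at base -14 of Nolc1.

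RNA polymerase I and its factors were the group with the fewest calls in the ChimP3V3 response, where edgeR called 0 of the 6 genes (Ubtf alone had an unadjusted p under 0.05, of 0.0284) and DESeq2 called 0. Of all tested genes 27.5% were called in that response. Under IL-6, Polr1c rose in gp130:IL-6R cells (25.7% of all tested genes rose), and Polr1a and Ubtf fell (24.3% of all fell). Between the lines in medium 4 of the 6 were lower in ChimP3V3 cells, against 33.4% of all.

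Ubtf (chr11:102195386-102210568, GRCm39, as are all gene positions below) encodes UBF, which opens ribosomal DNA chromatin and helps recruit the polymerase. It had 142, 127, 137 and 144 CPM under IL-6 and 168, 157, 158 and 131 CPM in medium in ChimP3V3 cells. The gp130:IL-6R cells had 114, 111, 112 and 119 CPM under IL-6 and 146, 150.3, 150.4 and 162 CPM in medium. The gp130:IL-6R libraries under IL-6 were the lowest and overlapped with no other group, while the ChimP3V3 conditions overlapped. Ubtf thus fell in gp130:IL-6R cells (log2 fold change -0.41, SE 0.0684, adjusted p = 2.56e-06) and was not called in ChimP3V3 cells (log2 fold change -0.16, SE 0.0677, adjusted p = 0.0885), where 8 of 29 alternative settings did call it lower. It was higher in ChimP3V3 cells under IL-6 (log2 fold change 0.27, SE 0.0728, adjusted p = 0.00151) and was not called between the lines in medium (log2 0.01, adjusted p = 0.883). The difference of the responses was not called (log2 0.26, adjusted p = 0.0517).

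Polr1a (chr6:71886037-71961919) encodes the largest subunit of RNA polymerase I. Under IL-6 it had 52.8, 42.4, 52.7 and 46.6 CPM in ChimP3V3 cells, against 48.6, 48.1, 53.7 and 45.5 CPM in medium. Under IL-6 it had 44.9, 44.5, 54.0 and 60.0 CPM in gp130:IL-6R cells, against 68.7, 88.4, 75.6 and 62.4 CPM in medium. The medium libraries of gp130:IL-6R cells were the highest and did not overlap the other groups, which overlapped each other. Polr1a fell in gp130:IL-6R cells (log2 fold change -0.53, SE 0.108, adjusted p = 6.53e-05), and in medium it was lower in ChimP3V3 cells (log2 fold change -0.60, SE 0.109, adjusted p = 8.25e-06). It was not called in ChimP3V3 cells (log2 -0.01, adjusted p = 0.975) or between the lines under IL-6 (log2 -0.07, adjusted p = 0.638). The responses differed (log2 fold change 0.52, SE 0.166, adjusted p = 0.0168), a call lost in 7 of 28 alternatives, among them DESeq2 and the removal of library 2 of gp130:IL-6R in medium, library 1 of gp130:IL-6R under IL-6, or library 1 or 3 of ChimP3V3 under IL-6.

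Polr1b (chr2:128942915-128968514), the second largest subunit, had few counts: 3.61, 5.20, 3.88 and 3.22 CPM under IL-6 and 2.08, 1.92, 2.07 and 4.07 CPM in medium in ChimP3V3 cells. The values were 13.6, 7.90, 6.93 and 8.21 CPM under IL-6 and 7.64, 11.4, 7.84 and 7.23 CPM in medium in gp130:IL-6R cells. Every ChimP3V3 library was below every gp130:IL-6R library, and within each line the conditions overlapped. The gene was lower in ChimP3V3 cells in medium (log2 fold change -1.73, SE 0.376, adjusted p = 0.000106) and under IL-6 (log2 fold change -1.18, SE 0.349, adjusted p = 0.00327), while neither response was called (log2 0.64, adjusted p = 0.334 in ChimP3V3 cells and log2 0.09, adjusted p = 0.817 in gp130:IL-6R cells). At 3 to 7 counts per ChimP3V3 library a change under IL-6 was hardly detectable. Polr1b passed the filter on low counts only through the gp130:IL-6R libraries, with 10 to 20 counts each. Its difference between the lines is therefore a description of a gene kept because 1 line was high.

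Polr1c (chr17:46554846-46558980), a subunit shared by RNA polymerases I and III, went against Polr1a. Its levels were 128, 134, 127 and 134 CPM under IL-6 and 143, 138, 133 and 126 CPM in medium in ChimP3V3 cells. Its levels in gp130:IL-6R cells were 189, 189, 194 and 182 CPM under IL-6 and 160.4, 161, 140.5 and 164 CPM in medium. The gp130:IL-6R libraries under IL-6 were the highest without overlap, and in the other comparisons within a line or in medium the libraries overlapped. Polr1c rose in gp130:IL-6R cells (log2 fold change 0.26, SE 0.0557, adjusted p = 0.000133) and was not called in ChimP3V3 cells (log2 -0.05, adjusted p = 0.687). The difference of responses was called (log2 fold change -0.31, SE 0.086, adjusted p = 0.0097) but not with counts thinned to the smallest library. ChimP3V3 cells had the lower level both under IL-6 (log2 fold change -0.52, SE 0.0607, adjusted p = 6.15e-10) and in medium (log2 -0.21, adjusted p = 0.0039).

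Rrn3 (chr16:13598572-13632703) encodes TIF-IA, which makes the polymerase competent to start and is a known target of growth signals. It had 60.7, 76.6, 65.9 and 69.9 CPM under IL-6 and 77.1, 67.9, 65.4 and 63.1 CPM in medium in ChimP3V3 cells. Levels were 83.1, 74.7, 73.4 and 70.1 CPM under IL-6 and 86.6, 78.8, 80.6 and 86.1 CPM in medium in gp130:IL-6R cells. Of the comparisons made, only that of the lines in medium showed no overlap, with the ChimP3V3 libraries lower. Rrn3 was called in that comparison alone (log2 fold change -0.28, SE 0.0858, adjusted p = 0.00649) and in neither response (log2 0.00, adjusted p = 0.994 in ChimP3V3 cells, log2 -0.14, adjusted p = 0.205 in gp130:IL-6R cells). Polr1d, a further subunit shared with RNA polymerase III, was called only between the lines under IL-6, as lower in ChimP3V3 cells (log2 -0.13, adjusted p = 0.0436), and lost the call in 7 of 29 alternatives, DESeq2 and the removal of library 1 of ChimP3V3 or library 2 of gp130:IL-6R under IL-6 among them.

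The snoRNP core proteins were the most uniform group in the gp130:IL-6R response. All 7 fell under IL-6 in gp130:IL-6R cells, with log2 changes of -0.28 to -0.56, and all 7 were lower in ChimP3V3 cells in medium, with differences of -0.32 to -1.06. Over all tested genes 24.3% fell in gp130:IL-6R cells and 33.4% were lower in ChimP3V3 cells in medium. In ChimP3V3 cells Fbl, Nop56, Nop10 and Gar1 fell (11.4% of all fell) and Dkc1 rose (16.2% of all rose). The summed share of the 7 genes was 0.125% ± 0.00174 under IL-6 and 0.140% ± 0.00144 in medium in ChimP3V3 cells, and 0.143% ± 0.00279 under IL-6 and 0.190% ± 0.00396 in medium in gp130:IL-6R cells (SD, n = 4 each).

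Among the box C/D proteins, Fbl (chr7:27869135-27878694) encodes fibrillarin, the methyltransferase of the complex. Its levels were 181, 170.2, 158 and 178 CPM under IL-6 and 201, 197, 211 and 199.6 CPM in medium in ChimP3V3 cells. The levels were 199, 209.7, 228 and 205 CPM under IL-6 and 281, 239, 257 and 265 CPM in medium in gp130:IL-6R cells. Within each line the IL-6 libraries were all below the medium libraries, and the highest group was gp130:IL-6R in medium. Fbl fell in ChimP3V3 cells (log2 fold change -0.24, SE 0.0609, adjusted p = 0.00269) and in gp130:IL-6R cells (log2 fold change -0.31, SE 0.0525, adjusted p = 4.49e-06), and the responses were not called as different (log2 0.07, adjusted p = 0.586). It was lower in ChimP3V3 cells in medium (log2 fold change -0.36, SE 0.0529, adjusted p = 1.1e-07) and under IL-6 (log2 fold change -0.29, SE 0.0604, adjusted p = 5.59e-05).

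Nop56 (chr2:130116350-130121233) encodes a scaffold that pairs with Nop58 in the same particle. It overlaps Idh3b on the other strand, and counts of these genes may be mixed, because the strand setting of the counting was not given. Idh3b had log2 changes under IL-6 of -0.22 in ChimP3V3 cells and -0.23 in gp130:IL-6R cells. Nop56 had 74.5, 72.8, 80.7 and 71.6 CPM under IL-6 and 93.1, 85.3, 77.8 and 101 CPM in medium in ChimP3V3 cells. It had 125, 111, 123 and 120.0 CPM under IL-6 and 151, 139.5, 149.7 and 142 CPM in medium in gp130:IL-6R cells. Every ChimP3V3 library lay below every gp130:IL-6R library, and the conditions overlapped in ChimP3V3 cells alone. The fall in gp130:IL-6R cells was called (log2 fold change -0.28, SE 0.0656, adjusted p = 0.000433), as were the lower levels of ChimP3V3 cells in medium (log2 fold change -0.70, SE 0.0705, adjusted p = 1.49e-11) and under IL-6 (log2 fold change -0.68, SE 0.0805, adjusted p = 1.26e-09). The fall in ChimP3V3 cells (log2 fold change -0.25, SE 0.0863, adjusted p = 0.032) lost its call with DESeq2 and without library 1 or library 4 of ChimP3V3 in medium, and the responses were not called as different (log2 0.03, adjusted p = 0.916). Nop58 was called lower in gp130:IL-6R cells (log2 -0.31, adjusted p = 4.63e-08) and not in ChimP3V3 cells (log2 0.01, adjusted p = 0.922), and its responses differed (log2 0.32, adjusted p = 0.000196).

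Among the box H/ACA proteins, Dkc1 (chrX:74139460-74153383) encodes dyskerin, the pseudouridine synthase, which is also part of telomerase. It overlaps Mpp1 on the other strand, with 56.7 counts on average over all libraries beside 372 for Dkc1. Mpp1 was far higher in ChimP3V3 cells than in gp130:IL-6R cells (log2 5.77 in medium and 6.08 under IL-6). Most of its counts thus lie in the ChimP3V3 libraries, where some may be mixed with those of Dkc1 if strand was not used. The log2 changes of Mpp1 under IL-6 were -0.17 in ChimP3V3 cells and -0.49 in gp130:IL-6R cells. Dkc1 had 231, 248, 258 and 248 CPM under IL-6 and 232, 224, 209 and 220.0 CPM in medium in ChimP3V3 cells. It had 236, 254, 243 and 232 CPM under IL-6 and 326, 303, 314 and 310.1 CPM in medium in gp130:IL-6R cells. Medium libraries of gp130:IL-6R cells stood above all others, and the ChimP3V3 conditions overlapped. The fall in gp130:IL-6R cells was called (log2 fold change -0.38, SE 0.0457, adjusted p = 3.6e-09) and so was the difference of the responses (log2 fold change 0.53, SE 0.0687, adjusted p = 8.99e-08). The rise in ChimP3V3 cells was small (log2 fold change 0.15, SE 0.0512, adjusted p = 0.0278) and lost its call in 16 of 29 alternatives (adjusted p 0.0129 to 0.329). Among these were DESeq2 and the removal of library 3 or 4 of ChimP3V3 in medium, of library 2, 3 or 4 of ChimP3V3 under IL-6, and of library 1 or 4 of gp130:IL-6R under IL-6. In medium Dkc1 was lower in ChimP3V3 cells (log2 fold change -0.50, SE 0.0465, adjusted p = 1.76e-12), and under IL-6 the lines were not called as different (log2 0.03, adjusted p = 0.635).

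Nop10 (chr2:112092271-112093614), a small protein that holds dyskerin, had 314, 299.6, 339 and 343 CPM under IL-6 and 372, 353, 368 and 359 CPM in medium in ChimP3V3 cells. Its levels in gp130:IL-6R cells were 343, 327, 342 and 354 CPM under IL-6 and 435, 437, 481 and 483 CPM in medium. The IL-6 libraries were below the medium libraries in both lines without overlap. Nop10 fell in ChimP3V3 cells (log2 fold change -0.17, SE 0.0479, adjusted p = 0.00725) and in gp130:IL-6R cells (log2 fold change -0.42, SE 0.0431, adjusted p = 6.82e-11), and the fall was larger in gp130:IL-6R cells (log2 fold change 0.26, SE 0.0646, adjusted p = 0.00266 for the difference). In medium Nop10 was lower in ChimP3V3 cells (log2 fold change -0.34, SE 0.0424, adjusted p = 4.93e-09), and under IL-6 no difference between the lines was called (log2 -0.08, adjusted p = 0.147).

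Gar1 (chr3:129618561-129625045), the H/ACA protein that helps release the modified RNA, had 120.0, 130.1, 129 and 138 CPM under IL-6 and 161, 148, 161 and 157 CPM in medium in ChimP3V3 cells. The libraries of gp130:IL-6R cells held 119, 131, 141 and 137 CPM under IL-6 and 202, 189, 183 and 204 CPM in medium. In both lines the IL-6 libraries were lower without overlap, and under IL-6 the lines overlapped. Gar1 fell in ChimP3V3 cells (log2 fold change -0.28, SE 0.0658, adjusted p = 0.00105) and in gp130:IL-6R cells (log2 fold change -0.56, SE 0.0597, adjusted p = 1.86e-10). The difference of the responses was called (log2 fold change 0.28, SE 0.0895, adjusted p = 0.0219), but only in 17 of 28 alternatives. It was lost with DESeq2 and without library 2, 3 or 4 of ChimP3V3 under IL-6, library 2 of ChimP3V3 in medium, or library 1 or 4 of gp130:IL-6R under IL-6. In medium Gar1 was lower in ChimP3V3 cells (log2 fold change -0.32, SE 0.0572, adjusted p = 6.59e-06).

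Nhp2 (chr11:51510562-51514541), the remaining H/ACA protein, overlaps Rmnd5b on the other strand, which had log2 changes under IL-6 of 0.30 in ChimP3V3 cells and 0.61 in gp130:IL-6R cells. It had 62.2, 56.5, 53.5 and 57.1 CPM under IL-6 and 72.3, 73.1, 68.9 and 57.7 CPM in medium in ChimP3V3 cells. It had 95.3, 103, 92.1 and 99.1 CPM under IL-6 and 140.0, 147, 134 and 145 CPM in medium in gp130:IL-6R cells. No ChimP3V3 library reached the level of any gp130:IL-6R library. Nhp2 was lower in ChimP3V3 cells in medium (log2 fold change -1.06, SE 0.0736, adjusted p = 3.23e-16) and under IL-6 (log2 fold change -0.76, SE 0.0878, adjusted p = 5.41e-10). It fell in gp130:IL-6R cells (log2 fold change -0.54, SE 0.0674, adjusted p = 9.2e-09), was not called in ChimP3V3 cells (log2 -0.24, adjusted p = 0.0805), and the difference of responses was not called (log2 0.29, adjusted p = 0.0972).

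Among the 18 small subunit assembly factors, Imp3, Ddx10, Wdr43 and Tsr1 rose in ChimP3V3 cells, Tsr1 not so without library 2 or 4 under IL-6. In gp130:IL-6R cells Imp3, Ddx10 and Utp15 rose and 7 fell, namely Rrp9, Rrp12, Wdr75, Noc4l, Utp20, Heatr1 and Imp4, with log2 changes of -0.69 to -0.25. The call of Rrp12 was lost without library 2 of gp130:IL-6R in medium. The counts of Rrp9, Tsr1 and Bysl are uncertain, since each overlaps a gene on the other strand. Parp3 had 31.9 counts on average beside 17.9 for Rrp9 and under IL-6 was higher in ChimP3V3 cells (log2 1.36 over gp130:IL-6R cells, adjusted p = 4e-09 by edgeR). Srr had 23.9 beside 115 for Tsr1, and Ccnd3 had 268 beside 79.2 for Bysl. In medium 14 of the 18 were lower in ChimP3V3 cells and Imp4 was higher, against 33.4% and 31.7% of all tested genes. Under IL-6, 16.2% of all rose in ChimP3V3 cells, and 25.7% rose and 24.3% fell in gp130:IL-6R cells. Median log2 changes of the 18 genes were 0.14 in ChimP3V3 cells and -0.08 in gp130:IL-6R cells.

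Of these genes 5 code for members of the UTP-A complex, which binds the nascent precursor first. Heatr1 (chr13:12409908-12455170), its largest member, overlaps Lgals8 on the other strand, which had 99.6 counts on average beside 112 for Heatr1. Lgals8 had log2 changes under IL-6 of -0.28 in ChimP3V3 cells and 0.42 in gp130:IL-6R cells. Heatr1 had 68.0, 70.6, 74.5 and 64.3 CPM under IL-6 and 63.9, 57.1, 53.7 and 61.1 CPM in medium in ChimP3V3 cells. It had 80.3, 77.6, 80.3 and 72.0 CPM under IL-6 and 96.1, 102, 102 and 106 CPM in medium in gp130:IL-6R cells. The conditions did not overlap in either line, with the IL-6 libraries higher in ChimP3V3 cells and lower in gp130:IL-6R cells. The fall in gp130:IL-6R cells was called (log2 fold change -0.39, SE 0.0749, adjusted p = 4.77e-05) and the value in ChimP3V3 cells was not (log2 fold change 0.24, SE 0.0913, adjusted p = 0.0899). The difference of responses was called (log2 fold change 0.63, SE 0.118, adjusted p = 0.000121), as was the lower level of ChimP3V3 cells in medium (log2 fold change -0.78, SE 0.08, adjusted p = 2.39e-11), but not that under IL-6 (log2 -0.16, adjusted p = 0.163).

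Utp15 (chr13:98383353-98399549) had 52.1, 44.6, 50.4 and 39.4 CPM under IL-6 and 46.6, 48.1, 52.3 and 48.9 CPM in medium in ChimP3V3 cells. The other line held 113, 87.6, 109 and 87.1 CPM under IL-6 and 77.6, 72.2, 72.0 and 76.2 CPM in medium. The ChimP3V3 libraries were all below the gp130:IL-6R libraries, and the gp130:IL-6R libraries under IL-6 were the highest. Utp15 rose in gp130:IL-6R cells (log2 fold change 0.41, SE 0.0865, adjusted p = 0.000105) and was not called in ChimP3V3 cells (log2 -0.07, adjusted p = 0.749). The difference of responses was called (log2 fold change -0.48, SE 0.148, adjusted p = 0.0142) but not with thinned counts. ChimP3V3 cells had less of it under IL-6 (log2 fold change -1.08, SE 0.101, adjusted p = 2.16e-12) and in medium (log2 fold change -0.61, SE 0.103, adjusted p = 2.17e-06).

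Wdr43 (chr17:71922890-71966026) had 220.5, 215, 205 and 208 CPM under IL-6 and 172, 158, 159.8 and 169.8 CPM in medium in ChimP3V3 cells. The values in gp130:IL-6R cells were 244, 249, 238 and 261 CPM under IL-6 and 251, 266, 230.3 and 243 CPM in medium. Every ChimP3V3 library was below every gp130:IL-6R library, and the IL-6 libraries were higher without overlap in ChimP3V3 cells only. Wdr43 rose in ChimP3V3 cells (log2 fold change 0.37, SE 0.058, adjusted p = 3.36e-06), was at no called change in gp130:IL-6R cells (log2 0.00, adjusted p = 0.984), and the responses differed (log2 fold change 0.37, SE 0.0757, adjusted p = 0.000257). It was lower in ChimP3V3 cells in medium (log2 -0.59, adjusted p = 8.95e-13) and under IL-6 (log2 -0.23, adjusted p = 0.000279). Of the other UTP-A genes, Wdr75 fell in gp130:IL-6R cells (log2 -0.25, adjusted p = 0.00426) and Utp4 was called in neither response (log2 0.17, adjusted p = 0.252 in ChimP3V3 cells, log2 0.03, adjusted p = 0.795 in gp130:IL-6R cells).

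Imp4 (chr1:34478932-34488437) and Imp3 belong to the MPP10 complex, which helps pair the U3 snoRNA with the precursor. Imp4 had 138, 147, 155 and 138 CPM under IL-6 and 128, 136, 142 and 127 CPM in medium in ChimP3V3 cells. It had 79.0, 94.1, 81.0 and 75.8 CPM under IL-6 and 104, 93.8, 99.1 and 105 CPM in medium in gp130:IL-6R cells. Every ChimP3V3 library was above every gp130:IL-6R library, while 41 of the 53 genes were called lower in ChimP3V3 cells in medium. Imp4 was higher in ChimP3V3 cells under IL-6 (log2 fold change 0.81, SE 0.0744, adjusted p = 1.15e-12) and in medium (log2 fold change 0.41, SE 0.0695, adjusted p = 2.33e-06). It fell in gp130:IL-6R cells (log2 fold change -0.29, SE 0.0785, adjusted p = 0.00289), was not called in ChimP3V3 cells (log2 0.12, adjusted p = 0.232), and its responses differed (log2 0.41, adjusted p = 0.00306). Imp3 rose in ChimP3V3 cells (log2 0.26, adjusted p = 0.00327) and in gp130:IL-6R cells (log2 0.26, adjusted p = 0.000827), and was not called between the lines.

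Ddx10 (chr9:53009935-53159353), an RNA helicase, had 257, 284, 283 and 272 CPM under IL-6 and 219.6, 221, 224 and 222 CPM in medium in ChimP3V3 cells. It had 268, 282, 267 and 277 CPM under IL-6 and 229.7, 226, 238 and 238 CPM in medium in gp130:IL-6R cells. In both lines the IL-6 libraries were higher without overlap, and in medium the ChimP3V3 libraries lay just below those of gp130:IL-6R cells. Ddx10 rose in ChimP3V3 cells (log2 fold change 0.31, SE 0.0475, adjusted p = 2.25e-06) and in gp130:IL-6R cells (log2 fold change 0.23, SE 0.0453, adjusted p = 4.21e-05), with no called difference of responses (log2 0.07, adjusted p = 0.527) or of lines in medium (log2 -0.07, adjusted p = 0.251).

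Nob1 (chr8:108139118-108151683), the nuclease that makes the final cut of the small subunit RNA in the cytoplasm, had 40.5, 29.7, 38.0 and 27.3 CPM under IL-6 and 32.7, 33.3, 29.6 and 22.4 CPM in medium in ChimP3V3 cells. It had 41.5, 42.4, 47.1 and 48.6 CPM under IL-6 and 47.7, 39.7, 39.9 and 38.8 CPM in medium in gp130:IL-6R cells. The conditions overlapped in both lines, and the ChimP3V3 libraries were lower in each condition. Neither response was called (log2 0.20, adjusted p = 0.347 in ChimP3V3 cells, log2 0.11, adjusted p = 0.47 in gp130:IL-6R cells). Nob1 was lower in ChimP3V3 cells in medium (log2 fold change -0.49, SE 0.136, adjusted p = 0.00174) and under IL-6 (log2 fold change -0.40, SE 0.135, adjusted p = 0.00893).

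**Figure D5:**
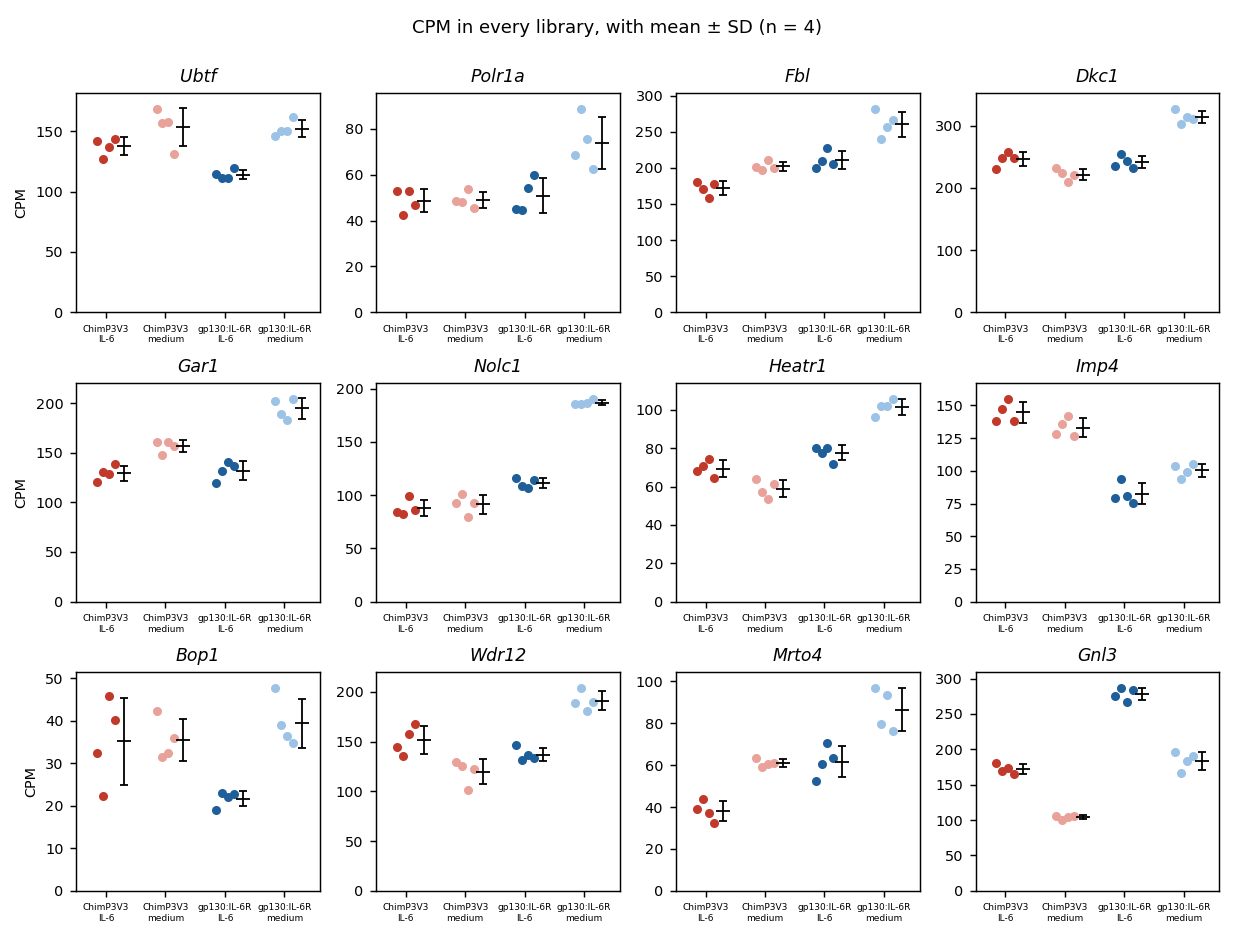
CPM (vertical axis, from 0) of 12 genes in each of the 16 libraries, by line and condition, with the mean ± SD beside the points (n = 4). The gp130:IL-6R libraries in medium are the highest group for Dkc1, Gar1, Nolc1, Heatr1 and Wdr12, Imp4 is highest in ChimP3V3 cells, and Gnl3 is higher under IL-6 in both lines.

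Among the 17 large subunit assembly factors, Rrs1, Ppan, Wdr12, Rrp1b and Nip7 rose in ChimP3V3 cells and Mrto4 fell. In gp130:IL-6R cells Rrs1, Ppan and Wdr74 rose, and Nop16, Bop1, Wdr12, Ebna1bp2, Mrto4 and Noc2l fell, with log2 changes of -0.86 to -0.41. In medium 11 of the 17 were lower in ChimP3V3 cells, against 33.4% of all tested genes. Under IL-6, 16.2% of all rose and 11.4% fell in ChimP3V3 cells, and 25.7% rose and 24.3% fell in gp130:IL-6R cells. The call of Nip7 in ChimP3V3 cells (log2 0.22, adjusted p = 0.046) was lost in 23 of 29 alternatives, among them DESeq2 and the removal of any ChimP3V3 library but library 1 in medium, of library 1, 2 or 4 of gp130:IL-6R under IL-6, or of library 3 of gp130:IL-6R in medium. That of Rrp1b (log2 0.35, adjusted p = 0.025) was lost in 9 of 29, DESeq2 and the removal of library 1 or 4 of ChimP3V3 in medium or library 2, 3 or 4 under IL-6 among them.

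Bop1, Pes1 and Wdr12 form the PeBoW complex, which is needed for cutting the large subunit precursor. Bop1 (chr15:76337189-76361477) overlaps Mroh1 on the other strand, which had 29.2 counts on average beside 47.9 for Bop1. Mroh1 had log2 changes under IL-6 of 0.42 in ChimP3V3 cells and 0.54 in gp130:IL-6R cells, and was higher in ChimP3V3 cells under IL-6 by 0.54. Bop1 had 32.5, 22.3, 45.8 and 40.2 CPM under IL-6 and 42.4, 31.4, 32.4 and 36.0 CPM in medium in ChimP3V3 cells. It had 19.1, 23.0, 22.2 and 22.7 CPM under IL-6 and 47.7, 39.1, 36.4 and 34.8 CPM in medium in gp130:IL-6R cells. The gp130:IL-6R libraries under IL-6 were the lowest group, and their range was reached by library 2 of ChimP3V3 under IL-6. Bop1 fell in gp130:IL-6R cells (log2 fold change -0.86, SE 0.164, adjusted p = 2.42e-05), while the spread in ChimP3V3 cells was wide and no change was called (log2 fold change -0.02, SE 0.155, adjusted p = 0.952). The responses differed (log2 fold change 0.84, SE 0.227, adjusted p = 0.00479), and under IL-6 ChimP3V3 cells had the higher level (log2 fold change 0.68, SE 0.175, adjusted p = 0.000796), but not in medium (log2 -0.16, adjusted p = 0.34).

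Wdr12 (chr1:60108944-60137804), which overlaps Carf on the other strand (log2 changes under IL-6 of -0.27 in ChimP3V3 cells and -0.06 in gp130:IL-6R cells), had 145, 136, 157 and 168 CPM under IL-6 and 129, 125, 101 and 123 CPM in medium in ChimP3V3 cells. It had 146, 131, 136 and 134 CPM under IL-6 and 189, 204, 181 and 189.9 CPM in medium in gp130:IL-6R cells. The conditions were apart in both lines, with the IL-6 libraries higher in ChimP3V3 cells and lower in gp130:IL-6R cells. Wdr12 rose in ChimP3V3 cells (log2 fold change 0.34, SE 0.0736, adjusted p = 0.000409) and fell in gp130:IL-6R cells (log2 fold change -0.48, SE 0.0648, adjusted p = 4.38e-08). The difference of the responses had the smallest p of the 53 genes (log2 fold change 0.82, SE 0.0981, adjusted p = 1.85e-08). In medium Wdr12 was lower in ChimP3V3 cells (log2 fold change -0.68, SE 0.0669, adjusted p = 9.64e-12), and under IL-6 no difference was called (log2 0.14, adjusted p = 0.0831).

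Pes1 (chr11:3913975-3930004) had 59.3, 64.7, 72.9 and 64.3 CPM under IL-6 and 71.6, 68.6, 73.7 and 72.7 CPM in medium in ChimP3V3 cells. It had 108, 108, 113 and 112 CPM under IL-6 and 104, 132, 124 and 132 CPM in medium in gp130:IL-6R cells. Every ChimP3V3 library was below every gp130:IL-6R library, and the conditions overlapped within each line. Pes1 was lower in ChimP3V3 cells in medium (log2 fold change -0.78, SE 0.0785, adjusted p = 1.56e-11) and under IL-6 (log2 fold change -0.75, SE 0.0862, adjusted p = 4.59e-10), with neither response called (log2 -0.13, adjusted p = 0.364 in ChimP3V3 cells, log2 -0.16, adjusted p = 0.0692 in gp130:IL-6R cells).

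Mrto4 (chr4:139074746-139079887) encodes a factor that holds the place of the ribosomal stalk protein on the growing large subunit. It had 39.0, 43.9, 37.2 and 32.2 CPM under IL-6 and 63.2, 59.0, 60.6 and 61.1 CPM in medium in ChimP3V3 cells. It had 52.4, 60.3, 70.6 and 63.1 CPM under IL-6 and 96.7, 79.4, 93.4 and 76.2 CPM in medium in gp130:IL-6R cells. The IL-6 libraries were below the medium libraries in both lines without overlap. Mrto4 fell in ChimP3V3 cells (log2 fold change -0.67, SE 0.12, adjusted p = 2.26e-05), the clearest fall there by its p, and in gp130:IL-6R cells (log2 fold change -0.48, SE 0.0942, adjusted p = 3.61e-05). Its responses were not called as different (log2 -0.19, adjusted p = 0.422), and it was lower in ChimP3V3 cells in medium (log2 -0.50, adjusted p = 1.29e-05) and under IL-6 (log2 -0.69, adjusted p = 3.42e-06).

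Rrs1 (chr1:9615633-9617680), which helps to load the 5S ribonucleoprotein, had 95.4, 103, 107 and 100.5 CPM under IL-6 and 79.9, 78.8, 84.0 and 87.6 CPM in medium in ChimP3V3 cells. It had 142, 134, 126 and 117 CPM under IL-6 and 83.4, 93.8, 77.0 and 98.6 CPM in medium in gp130:IL-6R cells. The IL-6 libraries were higher in both lines without overlap. Rrs1 rose in ChimP3V3 cells (log2 fold change 0.30, SE 0.084, adjusted p = 0.00629), a call lost without library 3 under IL-6, and in gp130:IL-6R cells (log2 fold change 0.55, SE 0.0749, adjusted p = 6.26e-08), and the difference of responses was not called (log2 -0.25, adjusted p = 0.115). Under IL-6 it was lower in ChimP3V3 cells (log2 -0.35, adjusted p = 9.03e-05). Ppan rose in ChimP3V3 cells (log2 0.92, adjusted p = 0.000422) and in gp130:IL-6R cells (log2 0.48, adjusted p = 0.0124), where DESeq2 did not call it.

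Noc2l (chr4:156320376-156332073), which escorts early large subunits out of the nucleolus, had 79.5, 84.7, 69.8 and 78.0 CPM under IL-6 and 68.1, 62.2, 69.6 and 74.0 CPM in medium in ChimP3V3 cells. It had 129, 97.7, 121 and 118 CPM under IL-6 and 169.9, 165, 175 and 160.3 CPM in medium in gp130:IL-6R cells. The ChimP3V3 libraries were all below the gp130:IL-6R libraries, of which those in medium stood highest. The difference between the lines in medium had the smallest p of the 53 genes (log2 fold change -1.29, SE 0.0758, adjusted p = 1.27e-18), and that under IL-6 was smaller (log2 fold change -0.58, SE 0.0836, adjusted p = 1.11e-07). Noc2l fell in gp130:IL-6R cells (log2 fold change -0.52, SE 0.0666, adjusted p = 1.31e-08), was not called in ChimP3V3 cells (log2 0.19, adjusted p = 0.149), and the responses differed (log2 0.71, adjusted p = 7.64e-06). Its partner Noc3l was called in no comparison.

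Wdr74 (chr19:8713191-8717988), a factor that an AAA ATPase removes from the early large subunit, had 41.9, 30.5, 35.7 and 34.6 CPM under IL-6 and 29.2, 30.8, 37.2 and 31.2 CPM in medium in ChimP3V3 cells. It had 33.4, 33.0, 33.9 and 41.7 CPM under IL-6 and 30.5, 21.6, 18.5 and 28.3 CPM in medium in gp130:IL-6R cells. The gp130:IL-6R libraries were higher under IL-6 without overlap, and all other comparisons overlapped. Wdr74 rose in gp130:IL-6R cells (log2 fold change 0.52, SE 0.149, adjusted p = 0.00338) and was not called in ChimP3V3 cells (log2 0.16, adjusted p = 0.474). Its higher level in ChimP3V3 cells in medium (log2 fold change 0.37, SE 0.152, adjusted p = 0.0329) was lost with DESeq2 and without library 2 or 3 of gp130:IL-6R, or library 3 of ChimP3V3, in medium.

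Ebna1bp2 (chr4:118477996-118484973), the homolog of yeast Ebp2, had 107, 107, 110.1 and 111 CPM under IL-6 and 119.5, 124, 122 and 117 CPM in medium in ChimP3V3 cells. It had 85.1, 101, 83.1 and 85.9 CPM under IL-6 and 128, 113, 123 and 109 CPM in medium in gp130:IL-6R cells. The IL-6 libraries were lower without overlap in both lines, by a narrow margin in ChimP3V3 cells. Ebna1bp2 fell in gp130:IL-6R cells (log2 fold change -0.41, SE 0.0725, adjusted p = 7.02e-06) and was not called in ChimP3V3 cells (log2 -0.15, adjusted p = 0.165). Under IL-6 it was higher in ChimP3V3 cells (log2 fold change 0.29, SE 0.0769, adjusted p = 0.00164), and in medium no difference was called (log2 0.03, adjusted p = 0.744).

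The 5 abundant multifunctional nucleolar proteins were all lower in ChimP3V3 cells, both in medium (33.4% of all tested genes were lower) and under IL-6 (31.6% of all). Their responses to IL-6 went in both directions, with Gnl3 rising in both lines and Ncl falling in both. Nolc1, Ddx21 and Ncl fell in gp130:IL-6R cells, Ddx21 not so without library 1 under IL-6, and Gnl3 and Npm1 rose. Over all tested genes 24.3% fell and 25.7% rose in that line.

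Gnl3 (chr14:30734390-30741109) encodes nucleostemin, a GTPase of the nucleolus that is abundant in stem and proliferating cells. It overlaps Pbrm1 on the other strand, which had 564 counts on average beside 268 for Gnl3. Gnl3 had 181, 169, 173 and 165 CPM under IL-6 and 106, 101, 105 and 105 CPM in medium in ChimP3V3 cells. It had 276, 287, 267 and 284 CPM under IL-6 and 196, 167, 184 and 189.9 CPM in medium in gp130:IL-6R cells. The conditions and the lines were apart without overlap, except that the ChimP3V3 libraries under IL-6 reached into the range of gp130:IL-6R in medium. Gnl3 rose in ChimP3V3 cells (log2 fold change 0.72, SE 0.0663, adjusted p = 1.53e-11) and in gp130:IL-6R cells (log2 fold change 0.60, SE 0.0496, adjusted p = 1.88e-13), the smallest p of the 53 genes for a rise in each line. Pbrm1 itself had log2 changes of -0.08 in ChimP3V3 cells and -0.56 in gp130:IL-6R cells. The difference of responses was not called (log2 0.13, adjusted p = 0.354), and Gnl3 was lower in ChimP3V3 cells under IL-6 (log2 fold change -0.69, SE 0.0525, adjusted p = 4.39e-15) and in medium (log2 fold change -0.82, SE 0.063, adjusted p = 6.76e-15).

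Nolc1 (chr19:46064302-46073969) encodes Nopp140, a chaperone of snoRNPs that also binds RNA polymerase I. It had 84.6, 82.5, 99.3 and 86.0 CPM under IL-6 and 92.4, 101, 79.9 and 92.3 CPM in medium in ChimP3V3 cells. It had 116, 108, 107 and 114 CPM under IL-6 and 186, 185, 186 and 191 CPM in medium in gp130:IL-6R cells. Medium libraries of gp130:IL-6R cells were the highest and lay close together, and the ChimP3V3 conditions overlapped. Nolc1 fell in gp130:IL-6R cells (log2 fold change -0.74, SE 0.062, adjusted p = 2.31e-13), the smallest p of the 53 genes for a fall, and was not called in ChimP3V3 cells (log2 -0.06, adjusted p = 0.687). The responses differed (log2 fold change 0.69, SE 0.103, adjusted p = 1.81e-06). The level was lower in ChimP3V3 cells under IL-6 (log2 fold change -0.34, SE 0.0775, adjusted p = 0.00022) and in medium (log2 fold change -1.03, SE 0.0649, adjusted p = 1.42e-17).

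Ncl (chr1:86272441-86287122) encodes nucleolin, which binds the precursor and acts in chromatin and RNA processing. It had 941, 978, 1021 and 974 CPM under IL-6 and 1076, 1031, 1063 and 1043 CPM in medium in ChimP3V3 cells. It had 1059, 1084, 1140.0 and 1095 CPM under IL-6 and 1165, 1167, 1257 and 1175 CPM in medium in gp130:IL-6R cells. The IL-6 libraries were below the medium libraries in both lines, by a small margin. Ncl fell in ChimP3V3 cells (log2 fold change -0.11, SE 0.0339, adjusted p = 0.0151) and in gp130:IL-6R cells (log2 fold change -0.12, SE 0.0318, adjusted p = 0.00155), with no called difference of responses (log2 0.01, adjusted p = 0.869). It was lower in ChimP3V3 cells under IL-6 (log2 fold change -0.16, SE 0.0337, adjusted p = 6.2e-05) and in medium (log2 fold change -0.18, SE 0.032, adjusted p = 6.89e-06).

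Npm1 (chr11:33102287-33113206) encodes nucleophosmin, a histone and ribosome chaperone. Its counts are uncertain where reads fit its near-identical pseudogene copies. It had 1353, 1361, 1385 and 1384 CPM under IL-6 and 1394, 1341, 1402 and 1377 CPM in medium in ChimP3V3 cells. It had 1706, 1759, 1712 and 1661 CPM under IL-6 and 1589, 1565, 1717 and 1624 CPM in medium in gp130:IL-6R cells. Every ChimP3V3 library was below every gp130:IL-6R library, and the conditions overlapped. The rise in gp130:IL-6R cells (log2 fold change 0.08, SE 0.0293, adjusted p = 0.0301) was lost in 13 of 28 alternatives (adjusted p 0.00485 to 0.198), among them DESeq2 and the removal of library 2 or 3 of gp130:IL-6R under IL-6, of library 1, 2 or 4 of gp130:IL-6R in medium, or of library 1, 3 or 4 of ChimP3V3 in medium. No change was called in ChimP3V3 cells (log2 -0.01, adjusted p = 0.885). Npm1 was lower in ChimP3V3 cells under IL-6 (log2 fold change -0.32, SE 0.0306, adjusted p = 5.02e-12) and in medium (log2 fold change -0.23, SE 0.0301, adjusted p = 6.98e-09).

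A separate list of 129 other ribosome biogenesis genes, of which 128 were in the table and 126 were tested, gave counts of the same kind. In ChimP3V3 cells 20 rose (15.9%, against 16.2% of all tested genes) and 7 fell (5.56%, against 11.4%), with a median log2 change of 0.02. Of the same genes, 18 rose in gp130:IL-6R cells (14.3%, against 25.7%) and 43 fell (34.1%, against 24.3%), with a median of -0.09. The difference of responses was positive for 26 (20.6%, against 12.4%) and negative for 7 (5.56%, against 11.5%). Set against gp130:IL-6R cells, ChimP3V3 cells had 71 lower (56.3%, against 33.4%) and 13 higher (10.3%, against 31.7%) in medium. Under IL-6 they had 56 lower (44.4%, against 31.6%) and 17 higher (13.5%, against 31.2%). Tcof1, the treacle protein that works with Ubtf, had 114 ± 5.80 CPM under IL-6 and 208 ± 19.7 CPM in medium in gp130:IL-6R cells (SD, n = 4 each; log2 fold change -0.86, adjusted p = 2.18e-14). Tcof1 had 138 ± 12.0 CPM under IL-6 and 164 ± 1.64 CPM in medium in ChimP3V3 cells, a smaller fall (log2 fold change -0.26, adjusted p = 0.00409), and the responses differed (log2 0.61, adjusted p = 5.73e-06). Ruvbl1, an ATPase that helps assemble box C/D snoRNPs, had 79.2 ± 3.68 CPM under IL-6 and 153 ± 8.15 CPM in medium in gp130:IL-6R cells (log2 fold change -0.95, adjusted p = 1e-14). Nop53 rose in ChimP3V3 cells (log2 fold change 0.49, adjusted p = 2.32e-09) and in gp130:IL-6R cells (log2 fold change 0.46, adjusted p = 2.65e-10), and Nsa2 also rose in both (log2 fold change 0.24 and 0.30). Nufip1, a further snoRNP assembly factor, was lower in ChimP3V3 cells under IL-6, with 15.5 ± 2.79 CPM, against 46.2 ± 5.70 CPM in gp130:IL-6R cells (log2 fold change -1.58, adjusted p = 6.72e-11). Rbm34 went the other way, being higher in ChimP3V3 cells in medium (log2 fold change 1.07, adjusted p = 2.86e-14) and under IL-6 (log2 fold change 0.81, adjusted p = 4.93e-11).

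The counts in ChimP3V3 cells depended on how replicates were treated. Merging replicates that agree within sampling noise gave fewer calls in the ChimP3V3 response and in the difference of responses. It left ChimP3V3 cells in medium without replicates, so the counts of calls under it are not given. Without library 2, 3 or 4 of ChimP3V3 under IL-6, 7 genes rose in ChimP3V3 cells in each case, against 11 with all libraries.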

How the data were processed

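The study measured 3′-end RNA (QuantSeq, from 100 ng of RNA, with single reads of 100 bases) in 16 libraries. Whole-number gene counts were made by the authors and deposited as total counts per gene and library, after mapping to GRCm39 with Ensembl release 107 in CLC Genomics Workbench 23.0.4, per the file headers and the submitters' processing notes. Read filters, duplicate handling and the strand setting are not given there. The table's 48 normalized columns were not used. Library totals were 1275112 to 1650348 counts, so genes at a few counts are imprecise.

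From these counts, genes passing filterByExpr (minimum count 10, total 15) were kept, which left 9540 genes with 99.6% of counts. TMM factors and edgeR 4.0.16 (R 4.3.3) quasi-likelihood tests were used, in a single fit of all 4 groups with 12 residual degrees of freedom and no covariate. P-values were Benjamini-Hochberg adjusted over the 9540 genes within each of 5 comparisons. Fits were tested on simulated data.

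The 53 genes, the lists and the tests were chosen with earlier results of these data known. Full values are given for the 3 called genes with the smallest p per direction and comparison and for set representatives of each role (29 genes), and all called genes are named where 5 or fewer. Alternatives were RLE or upper-quartile scaling, other filters, DESeq2 1.42.0, limma 3.58.1, thinned counts, stricter thresholds, leaving out abundant genes, a replicate block, merged replicates, and each library left out. Promoter windows came from RefSeq tables and motifs were searched with Python 3.11.15. No protein sequence was used here. A marker gene is not reported here.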

Additional observations from a re-analysis of the deposited data

Results flagged for a closer look

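Single libraries stood far from the other 3 of their group, by Dixon's test, in 8 of 124 groups of values (the genes given in full and summed shares of counts), and chance flags about 1 in 20. In gp130:IL-6R cells under IL-6 these were Ebna1bp2 (101 CPM in library 2, the highest) and Wdr74 (41.7 CPM in library 4, the highest). In gp130:IL-6R cells in medium they were Ncl (1257 CPM in library 3), Nob1 (47.7 CPM in library 1), Nolc1 (190.5 CPM in library 4) and Polr1b (11.4 CPM in library 2), each the highest, and Polr1c (140.5 CPM in library 3, the lowest). In ChimP3V3 cells in medium it was Polr1b (4.07 CPM in library 4, the highest).

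The responses of the lines to IL-6 differed, by the test of the difference in edgeR, for 18 of the 53 genes, against 23.9% of all genes tested. On the log2 scale, as ChimP3V3 minus gp130:IL-6R, the positive differences were 0.99 for Rrp12, 0.84 for Bop1, 0.82 for Wdr12, 0.71 for Noc2l, 0.69 for Nolc1, 0.63 for Heatr1, 0.57 for Nop16, 0.53 for Dkc1, 0.52 for Polr1a, 0.41 for Imp4, 0.37 for Wdr43, 0.33 for Wdr75, 0.32 for Nop58, 0.28 for Gar1, 0.26 for Nop10 and 0.19 for Ddx21. The negative ones were -0.48 for Utp15 and -0.31 for Polr1c. The difference of Wdr75 was called in 15 of 28 alternatives and that of Ddx21 in 17 of 28, and both were lost with DESeq2. That of Wdr75 was also lost without library 1, 2 or 3 of ChimP3V3 under IL-6, library 2 of ChimP3V3 in medium, library 1 or 2 of gp130:IL-6R under IL-6 or library 1 of gp130:IL-6R in medium. That of Ddx21 was lost without library 1, 3 or 4 of ChimP3V3, or library 1 of gp130:IL-6R, under IL-6. That of Rrp12 was lost without library 4 of ChimP3V3 under IL-6.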

How the results depend on the processing

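Of 2552 values of 89 named results under 29 settings, 2411 kept their direction and side of the threshold, 68 lost and 21 gained a call, and 52 changed sign. The ChimP3V3 response depended on the processing: 2 genes fell at a fold of at least 1.2 (11 rose and 6 fell as reported). Merging noise-level replicates gave fewer calls in this response and in the difference of responses. It left ChimP3V3 cells in medium without replicates, so its counts of calls are not given. Negative differences numbered 4 with no filter, 1 at an adjusted p under 0.01 and 0 with thinned counts. Higher in ChimP3V3 cells in medium was 1 gene with DESeq2 and at an adjusted p under 0.01. The median gp130:IL-6R response was -0.22 without abundant genes. The cause of these shifts was not tested. Leaving out single libraries gave 7 to 11 rises and 5 to 9 falls in ChimP3V3 cells, 12 to 20 positive and 2 to 5 negative differences (5 without library 4 of gp130:IL-6R under IL-6), a median difference of 0.19 to 0.28, and 1 to 2 genes higher in medium.

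All sign changes were in values not called as reported. In the ChimP3V3 response, Polr1a was 0.00 thinned or merged and -0.08 to 0.03 with libraries left out, Rrn3 was 0.03 thinned, 0.00 merged and -0.09 to 0.05, and Bop1 was -0.20 to 0.12. Polr1b in gp130:IL-6R cells was -0.08 merged and -0.15 to 0.27. Differences of responses were -0.01 (upper quartile), -0.03 (no filter), -0.02 (CPM of at least 5) and -0.05 to 0.03 for Ncl, -0.01 under both filters and -0.05 to 0.10 for Nop56, -0.01 under both filters and -0.07 to 0.10 for Pes1, and -0.05 to 0.16 for Nob1. Between the lines, Ubtf in medium was -0.02 thinned and -0.04 to 0.08, and Dkc1 under IL-6 was 0.00 without a filter and -0.02 to 0.06.

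Correlations between same-numbered libraries were -0.0826 to 0.0499. Replicates differed little beyond sampling noise (chi-square per degree of freedom 0.981 to 1.18), so these correlations cannot decide whether the samples were paired. With the replicate number as a block, 10 genes rose and 6 fell in ChimP3V3 cells, 9 and 25 in gp130:IL-6R cells, and 17 differences were positive and 2 negative. Between the lines the block gave 2 higher and 41 lower in medium and 4 and 27 under IL-6. Depth limits Polr1b most.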
